A study of Mus musculus with 60 samples.

Results

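The genes described here are 10 genes that mark the sinusoidal endothelium of the liver or carry its signals, chosen as a list of names, and they are 10 of the 17473 gene symbols measured in livers after 2/3 partial hepatectomy (PHX). Wild-type mice labelled C57BL/6 (C57BL/6J in the study's methods), 8 to 10 weeks old, gave 18 liver samples in 6 groups of 3, which were Normal liver and livers taken at 6 h (PHX-6h), 24 h (PHX-24h), day 3 (PHX-D3), day 7 (PHX-D7) and day 14 (PHX-D14). The controls are labelled as normal and no sham operation is named, so PHX cannot be told apart from anaesthesia, surgery or the hour of sampling. Nothing in the labels says that each sample is a separate mouse, so p-values set group differences against the spread between these samples. Whole tissue was sequenced, and the series also holds 33 samples of hepatocytes and of cells grown from them (IL6-iHPCs and IL6-iMHs), which served as a check on cells other than endothelium.

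Liver sinusoids are lined by an endothelium with open pores that clears large molecules from the blood and signals to the hepatocytes behind it. Its identity genes are scavenger and lectin receptors, its growth is driven by VEGF through Kdr and by angiopoietins through Tek, and it sends out Wnt2, Rspo3 and Bmp2, called angiocrine because they come from vessel cells. After hepatectomy hepatocytes are known to divide first, and the vessels grow into the enlarged tissue later.

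Levels are FPKM, which scale fragments to transcript length and library size, so levels of different genes can be set side by side. Reads on genes, recovered from the FPKM up to a common factor, numbered 52073585 to 79266296 per sample. A member was called higher or lower when the limma fit of log2(FPKM + 1) over all 18 samples put its adjusted p below 0.05 and its difference at 2-fold or beyond. The comparisons with Normal liver share the same 3 control samples. Of the 10 members 9 passed the filter of 1 FPKM in at least 3 samples and Angpt2 did not.

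A pair of libraries stood apart from their groups. PHX-D3 replicate 2 correlated with PHX-D3 replicates 1 and 3 at r = 0.902 and 0.882 over the genes tested, where those 2 correlated at 0.985 with each other, and it was closest to PHX-24h replicate 3 (0.922). PHX-24h replicate 1 correlated with its group at 0.974 and 0.976, where the other 2 correlated at 0.989. Results at 24 h and day 3 are therefore also given without these libraries.

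Stab2 (chr10:86841198-87008025, minus strand, GRCm38, the mm10 build) encodes stabilin-2, the receptor that takes up hyaluronan from the blood. Lyve1 (chr7:110850607-110863239, minus strand) encodes another hyaluronan receptor, found on sinusoidal and lymphatic endothelium and some macrophages. Clec4g (chr8:3707064-3720651, minus strand) encodes LSECtin, a lectin of the sinusoidal endothelium. Promoter sequences of 5 of the 10 members were in the RefSeq table used, and those of Clec4g and Stab2, both sinusoidal identity genes, are shown. For the other 3 the table's window held 47 (Tek), 0 (Kdr) and 0 (Wnt2) bases upstream of every annotated start. Only such upstream bases are printed, 5′ to 3′ on the minus strand of GRCm38.p6, from chr8:3720696-3720901 for Clec4g and chr10:87008039-87008192 for Stab2. Capitals mark AGGAAG, a core letter string of ETS factors, in either direction.

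Clec4g: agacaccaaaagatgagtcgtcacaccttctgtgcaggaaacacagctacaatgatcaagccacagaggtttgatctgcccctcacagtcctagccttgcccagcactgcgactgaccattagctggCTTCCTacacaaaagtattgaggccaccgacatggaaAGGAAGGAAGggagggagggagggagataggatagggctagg
Stab2: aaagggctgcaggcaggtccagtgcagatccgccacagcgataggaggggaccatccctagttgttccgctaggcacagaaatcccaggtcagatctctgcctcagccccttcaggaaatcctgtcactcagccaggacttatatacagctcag

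The Clec4g stretch held AGGAAG 3 times, of which 2 overlap, and the Stab2 stretch did not hold it. Among 32851 promoters, 24.5% held it in a stretch of the length shown for Clec4g and 18.6% in that shown for Stab2. The string of GATA factors, AGATAA, was in neither stretch on either strand. Nor was that of KLF factors, which is CCACCC. They were found in 8.65% and 23.3% of promoters at the Clec4g length and in 6.72% and 17% at the Stab2 length. The strings were picked after the values had been seen.

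The sinusoidal identity genes did not move as a group at 6 h. Lyve1 rose 3.97-fold on the scale of FPKM + 1, while Clec4g fell 2.07-fold and Stab2 fell by less. Lyve1 was at 3.7, 2.9 and 3.11 FPKM in Normal liver and at 16.1, 14.2 and 17.1 FPKM at 6 h. Every PHX-6h sample thus lay above every Normal liver sample, with means of 15.8 ± 1.48 and 3.24 ± 0.414 FPKM (SD, n = 3). On the log2(FPKM + 1) scale the change was 1.99 ± 0.39 (SE, limma, adjusted p = 0.00068).

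Clec4g was the most abundant member in every sample, at 76.6, 84.1 and 75.4 FPKM in Normal liver. At 6 h its level was 33.4, 38.5 and 41.1 FPKM, below every control sample (log2 change -1.05 ± 0.24, adjusted p = 0.00217). Stab2 went from 6.01, 4.56 and 5.18 FPKM to 2.2, 2.99 and 3.87 FPKM. Its groups did not overlap either, and its log2 change of -0.65 ± 0.26 (adjusted p = 0.046) stayed under 2-fold. Within 1 library the ratio of Lyve1 to Stab2 shows the same split without any scaling between samples. It was 0.6 to 0.636 in Normal liver and 4.42 to 7.33 at 6 h.

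**Figure D1:**
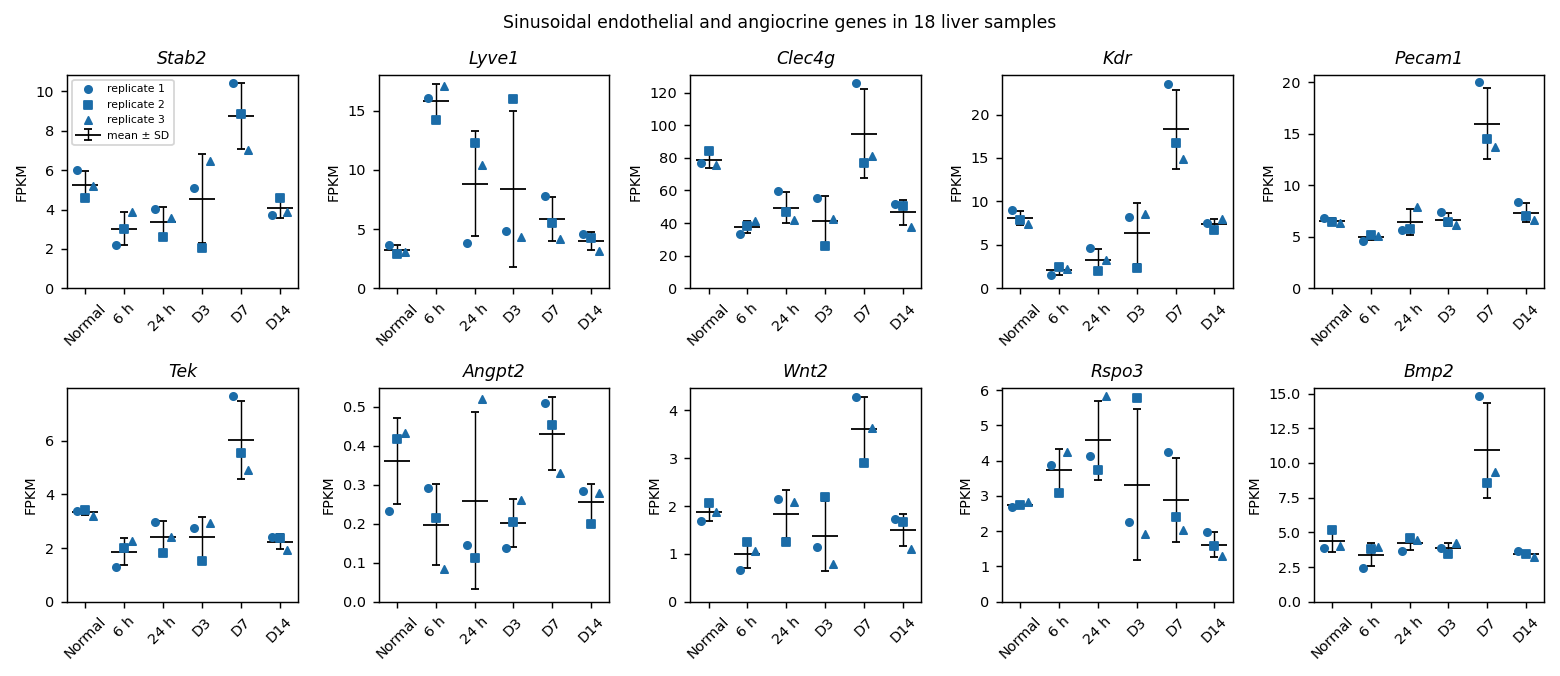
FPKM of the 10 members in each liver sample (y axis, linear from 0) by group (x axis), with points for the 3 replicates and bars for mean ± SD. Lyve1 is highest at 6 h (14.2 to 17.1 FPKM), most others are highest at day 7, and replicate 2 of day 3 lies with the early times for Lyve1 (16 FPKM) and Kdr (2.33 FPKM).

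The endothelial receptors were lower or similar at 6 h. Kdr (chr5:75932827-75978458, minus strand) encodes the main VEGF receptor of endothelial cells. Its level was 9.03, 7.88 and 7.43 FPKM in Normal liver and 1.51, 2.46 and 2.26 FPKM at 6 h. This was the largest fall among the members at that time, with a log2 change of -1.58 ± 0.32 (adjusted p = 0.000889), and the groups did not overlap. Tek (chr4:94739289-94874976, plus strand), the angiopoietin receptor, went from 3.37, 3.41 and 3.21 FPKM to 1.3, 2.02 and 2.26 FPKM. All 3 samples were below the controls, and the log2 change of -0.61 ± 0.19 (adjusted p = 0.0145) was under 2-fold. Pecam1 (chr11:106654217-106750628, minus strand), the junction molecule CD31 that leukocytes and platelets also carry, was at 6.82, 6.44 and 6.33 and then 4.61, 5.14 and 5.12 FPKM. The samples did not overlap, but the log2 change of -0.34 (95% interval -0.65 to -0.03) did not pass the test (adjusted p = 0.0596). Kdr therefore fell against Pecam1 within each library, from a ratio of 1.17 to 1.32 in Normal liver to 0.327 to 0.478 at 6 h.

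None of the secreted ligands was called at 6 h. Wnt2 (chr6:17988940-18030585, minus strand), a Wnt made by sinusoidal and central vein endothelium, was at 1.69, 2.06 and 1.88 FPKM in Normal liver and 0.665, 1.24 and 1.07 FPKM at 6 h. The groups did not overlap, and the log2 change of -0.54 ± 0.2 (adjusted p = 0.0339) was under 2-fold. Rspo3 (chr10:29452416-29535867, minus strand), the R-spondin that keeps Wnt receptors at the surface of central hepatocytes and that stellate cells also make, was at 2.69, 2.73 and 2.84 FPKM and at 3.87, 3.08 and 4.23 FPKM. Each PHX-6h sample was higher, with a log2 change of 0.33 (interval -0.24 to 0.89) that did not pass the test. Bmp2 (chr2:133552159-133562885, plus strand), through which the endothelium sets hepcidin in hepatocytes, was at 3.85, 5.18 and 4 FPKM and at 2.45, 3.77 and 3.93 FPKM, and these overlap.

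At 6 h, then, 1 of 9 members tested was called higher and 2 of 9 lower, where 4.78% and 11.5% of all 11114 genes tested were called. The median log2 change was -0.54 over the members and -0.28 over all genes. Quantile normalization moved that latter median to -0.04. Relative to the median of all genes the change of Lyve1 was 2.27, that of Kdr -1.3 and that of Clec4g -0.77, and those of Pecam1 (-0.06) and Bmp2 (-0.01) were near 0. Under quantile normalization Clec4g changed by -0.84 (adjusted p = 0.0094) and was no longer called. Its adjusted p ranged from 0.000113 to 0.0118 over its 26 alternatives. In whole tissue, fewer cells of a type and less RNA per cell cannot be told apart.

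At 24 h Lyve1 was still higher and Kdr still lower, and the other members but Rspo3 were nearer to Normal liver than at 6 h. Lyve1 was at 3.87, 12.3 and 10.4 FPKM, with replicate 1 close to the controls. Its log2 change of 1.1 ± 0.39 (adjusted p = 0.0423) rested on replicates 2 and 3, and without replicate 2 it was 0.82 and not called. The call was lost in 13 of its 26 alternatives. Kdr was at 4.6, 1.99 and 3.22 FPKM, all below Normal liver (-1.14 ± 0.32, adjusted p = 0.0144), and without replicate 2 its change was -0.9 and not called. Clec4g (59.9, 46.6 and 41.9 FPKM) remained below every control sample, with a log2 change of -0.67 ± 0.24 (adjusted p = 0.0435) under 2-fold.

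The members called were thus 1 higher and 1 lower of 9, against 3.74% and 4.16% of all genes. With PHX-24h replicate 1 and PHX-D3 replicate 2 left out, Lyve1 was at 1.54 (adjusted p = 1.63e-05, range 1.63e-05 to 0.175 over its alternatives) and Kdr at -1.36 (5.27e-05, range 5.27e-05 to 0.0741). The background was then 4.99% and 6.55%. Rspo3 reached its highest group mean at 24 h, 4.57 ± 1.11 FPKM from 4.14, 3.73 and 5.83 FPKM, each above the controls (log2 change 0.55, interval -0.02 to 1.12, adjusted p = 0.124). No member was called between 24 h and 6 h, where 5.19% of genes were called higher and 1.53% lower.

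At day 3 no member was called against Normal liver, where 3.33% of genes were called higher and 2.49% lower, and limma voom on the recovered reads called none either. The unadjusted p was under 0.05 for 2 of the 9 members, Lyve1 (0.0303) and Clec4g (0.00104). Clec4g was at 55.6, 25.7 and 42.8 FPKM, all below the controls, and its log2 change of -0.98 ± 0.24 (adjusted p = 0.00858) was just under 2-fold. Without PHX-D3 replicate 3, 2 members were called. For Lyve1, Kdr and Rspo3 replicate 2 lay far from replicates 1 and 3. For Pecam1 (7.4, 6.48 and 6.18 FPKM) it lay between them. Lyve1 was at 16 FPKM in replicate 2 and at 4.82 and 4.34 FPKM in the others, all above every Normal liver sample. Kdr was at 2.33 FPKM in replicate 2 and at 8.16 and 8.56 FPKM in the others, which are within the range of Normal liver. Rspo3 was at 5.78 FPKM in that library against 2.26 and 1.91 FPKM.

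Between day 3 and 24 h no member was called (background 2.07% higher and 1.65% lower). Without both libraries that stood apart, 2 were called in that comparison, Kdr higher by 1.4 on the log2 scale (adjusted p = 0.00019, range 0.00019 to 0.418 over its alternatives) and Lyve1 lower, at -1.14 (0.000855, range 0.000855 to 0.996). The share of all genes called in that comparison without both libraries was not computed. Whether PHX-D3 replicate 2 belongs to its labelled time was not tested.

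**Figure D2:**
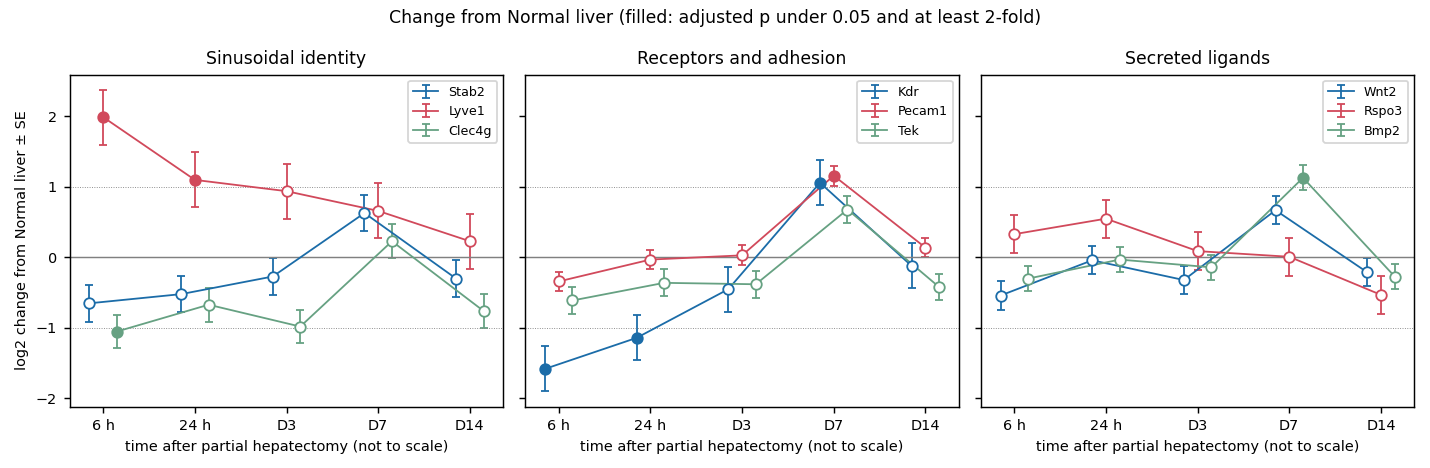
Change from Normal liver on the log2(FPKM + 1) scale (y axis, points ± SE, n = 3 a group) at each time (x axis, not to scale) for the 9 members tested, in panels by role. Filled points passed the test at 2-fold, and the panels show Lyve1 at 1.99 and Kdr at -1.58 at 6 h, then Kdr, Pecam1 and Bmp2 at 1.06, 1.16 and 1.13 at day 7.

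Day 7 was the time of the highest group mean for 8 of the 10 members, all but Lyve1 and Rspo3. The share of all genes with their highest mean at day 7 was not computed. Over all genes, 88.4% of the calls against Normal liver at that time were higher. Kdr stood at 23.5, 16.7 and 14.9 FPKM, with the lowest of these above the highest control (9.03 FPKM), and a mean of 18.3 ± 4.53 against 8.11 ± 0.824 FPKM (SD, n = 3). Its log2 change was 1.06 ± 0.32 (adjusted p = 0.0217). Pecam1 stood at 20, 14.5 and 13.7 FPKM, above all 15 samples of the other groups, and its change of 1.16 ± 0.14 had the smallest adjusted p of the members (1.98e-05). Bmp2 stood at 14.8, 8.57 and 9.37 FPKM, above all other samples too, with a change of 1.13 ± 0.18 (adjusted p = 0.000205).

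A further 2 members passed the test at day 7 with changes under 2-fold. Tek was at 7.66, 5.54 and 4.9 FPKM (0.68 ± 0.19, adjusted p = 0.0145) and Wnt2 at 4.28, 2.9 and 3.63 FPKM (0.67 ± 0.2, adjusted p = 0.0203), and all 3 samples of each lay above every other sample of that gene. Stab2, at 10.4, 8.85 and 7 FPKM, was above every other sample as well, but its change of 0.63 (interval 0.08 to 1.18) did not pass the test after adjustment (0.0816). Clec4g was at 126, 77 and 81.4 FPKM and overlapped Normal liver (0.23, interval -0.28 to 0.75). Lyve1, at 7.81, 5.56 and 4.16 FPKM, was above the 3 controls with a change of 0.66 (interval -0.17 to 1.5) that did not pass. Rspo3, at 4.23, 2.39 and 2.03 FPKM, had a change of 0.01 (interval -0.56 to 0.58).

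In counts, 3 of 9 members were called higher and 0 lower at day 7, with 7.81% and 1.03% of all genes called. The median change of the members was 0.67 and that of all genes was 0.13. Replicate 1 had the highest value of the group in 9 of the 9 members tested, and without it 1 member (Pecam1, at 1) was still called. Kdr was then at 0.88 (adjusted p = 0.0988, range 0.000169 to 0.0988) and Bmp2 at 0.91 (0.000992, range 0.000126 to 0.00168). Quantile normalization, which moved the median of all genes to -0.07, left changes of 0.87 for Kdr, 0.97 for Pecam1 and 0.91 for Bmp2 and called none of the members.

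Between day 3 and day 7 the rise took in 5 members, Kdr (1.52 ± 0.32), Bmp2 (1.27 ± 0.18), Clec4g (1.21 ± 0.24), Pecam1 (1.13 ± 0.14) and Tek (1.06 ± 0.19). Their adjusted p-values lay between 2.55e-05 and 0.00224. The background was 7.15% higher and 1.31% lower. Without both libraries that stood apart, 4 members were called, with Wnt2 (1.22) among them and Clec4g (0.91) and Tek (0.85) no longer past 2-fold. Without PHX-D7 replicate 1, 2 were called. The share of all genes called was not computed for these 2 settings.

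By day 14 the rise was gone. Bmp2 was at 3.63, 3.43 and 3.19 FPKM, Kdr at 7.47, 6.73 and 7.95 FPKM, Pecam1 at 8.38, 7.04 and 6.61 FPKM and Tek at 2.43, 2.38 and 1.91 FPKM, and no sample of these genes reached the lowest value of day 7. Each of the 4 was called lower than at day 7, with log2 changes of -1.4 ± 0.18, -1.18 ± 0.32, -1.02 ± 0.14 and -1.1 ± 0.19 and adjusted p-values from 2.55e-05 to 0.0123. Over all genes 0.441% were called higher and 7.35% lower. Quantile normalization and leaving out PHX-D7 replicate 1 each lowered the count of members from 4 to 1, while voom on recovered reads gave 7. Over all genes, lower calls went from 817 to 480 with quantile normalization and to 1411 with voom.

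Against Normal liver no member was called at day 14 by limma or by voom, with 0.981% of genes called higher and 2% lower. The unadjusted p was under 0.05 for Clec4g and Tek. Clec4g, at 51.7, 50.2 and 37.6 FPKM, was below every control sample (-0.76 ± 0.24, adjusted p = 0.0423, under 2-fold). Tek was below them as well (-0.42, interval -0.83 to -0.01, adjusted p = 0.152), and so was Rspo3 at 1.98, 1.57 and 1.29 FPKM (-0.53, interval -1.1 to 0.04, adjusted p = 0.199). Kdr, with -0.12 (interval -0.81 to 0.57), overlapped Normal liver.

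Taken directly, day 7 against 6 h separated the members most. Kdr was 2.64 ± 0.32 higher on the log2 scale (adjusted p = 5.38e-06), and Stab2, Clec4g, Pecam1, Tek, Wnt2 and Bmp2 were higher by 1.21 to 1.5, so 7 of 9 were called higher. Lyve1 alone was called lower (-1.33 ± 0.39, adjusted p = 0.00828), and Rspo3 was at -0.32 (interval -0.89 to 0.25). The background was 21.3% higher and 3.64% lower. With quantile normalization 2 members were called higher and 1 lower, and over all genes 1087 were called higher and 996 lower.

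The order of the levels over the groups differed between the members. For Kdr it ran from PHX-D7 (18.3 FPKM) through Normal liver, PHX-D14, PHX-D3 and PHX-24h to PHX-6h (2.07 FPKM), and only the first step was free of overlap between neighbours. For Lyve1 it began with PHX-6h, free of overlap with PHX-24h, and ended with Normal liver. Clec4g had PHX-D7 and Normal liver on top, overlapping each other, and then a step without overlap down to 24 h. For Rspo3 the only step free of overlap was the last, from Normal liver to day 14.

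Ratios within 1 library show which members moved apart. Bmp2 to Pecam1 had group means of 0.578 to 0.678 from Normal liver to day 7 and 0.468 at day 14. Rspo3 to Wnt2 was 1.33 to 1.59 in Normal liver, 2.49 to 5.82 at 6 h and 0.558 to 0.988 at day 7, so these 2 Wnt-side ligands kept apart at both ends. Clec4g to Pecam1 was 11.2 to 13.1 in Normal liver and below that in all 15 samples after PHX (3.97 to 10.6). Tek to Pecam1 was 0.494 to 0.529 in Normal liver and at most 0.474 after PHX but for 0.526 in PHX-24h replicate 1. These ratios are a description and were not tested.

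**Figure D3:**
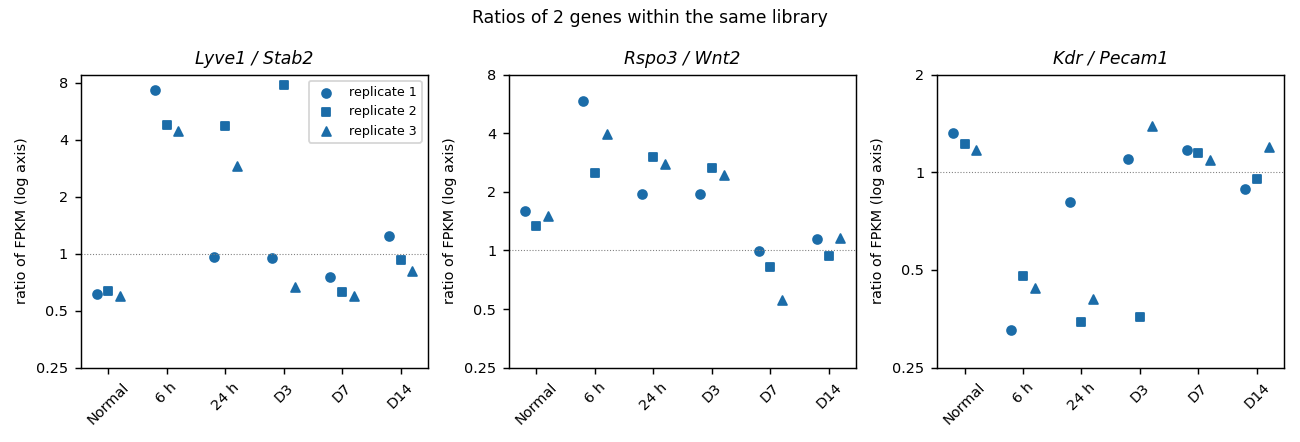
Ratio of FPKM of 2 members within each liver sample (y axis, log scale) by group (x axis), with 1 point a replicate. Lyve1 to Stab2 is 4.42 to 7.33 at 6 h and 7.76 in replicate 2 of day 3, Rspo3 to Wnt2 is under 1 at day 7, and Kdr to Pecam1 is lowest at 6 h (0.327).

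Across the 18 liver samples Stab2, Clec4g, Kdr, Pecam1, Tek, Wnt2 and Bmp2 correlated with each other at Pearson r of 0.58 (Stab2 and Wnt2) to 0.94 (Stab2 and Tek), and Lyve1 correlated with these at -0.13 to -0.7. Lyve1 and Rspo3 correlated at 0.69. These values are over samples that share groups and libraries and are given as a description. With both libraries that stood apart left out (16 samples), Stab2 and Wnt2 correlated at 0.71, and Lyve1 and Rspo3 at 0.72.

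Among all genes tested, those most like Stab2 were Arhgef15 (r = 0.959), Mmrn2 (0.947) and Icam2 (0.943), and those most like Kdr were Cnp (0.975), Mmrn2 (0.97) and Tmem88 (0.965). Lyve1 was followed most closely by Gprc5b (0.958), Sgms1 (0.955) and Skil (0.953). For Clec4g these were Mndal (0.917), Ifit1 (0.916) and Tek (0.907), for Pecam1 they included Plekha2 (0.962) and Plcg2 (0.961), and for Tek Sp100 (0.97), Fam167b (0.964) and Sipa1 (0.963). For Wnt2 they were Plekho1 (0.917), Pitpna (0.914) and Tmem9b (0.911), for Rspo3 Dnajc2 (0.913), Ccdc68 (0.907) and Riok3 (0.899), and for Bmp2 Abi3 (0.964), Rinl (0.961) and Cd86 (0.957). The mean standardised level of Stab2, Lyve1 and Clec4g was most like Abi3 (0.934), Phf11d (0.921), Clec9a (0.911), Iigp1 (0.909) and Exoc3l2 (0.906). Each r is over the 18 liver samples.

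Angpt2 (chr8:18690263-18741562, minus strand), the angiopoietin that sprouting endothelium releases, was near the limit of detection. It was at 0.0849 to 0.52 FPKM, or 19 to 132 reads, in all 18 samples. Its values were 0.233, 0.418 and 0.432 FPKM in Normal liver, 0.291, 0.215 and 0.0849 at 6 h and 0.511, 0.453 and 0.329 at day 7, and these groups overlap with the controls at day 7. Within PHX-24h the range ran from 0.111 to 0.52 FPKM. With no filter its log2 change was -0.19 ± 0.1 at 6 h and 0.07 ± 0.1 at day 7, and none of its comparisons passed. Values in this range cannot lie 2-fold apart on the scale of FPKM + 1, so no call of Angpt2 was possible. As a ratio of mean FPKM, 6 h stood at 0.545 of Normal liver. Genes most like it reached an r of 0.785 (Tbc1d10a), 0.784 (Ybx1) and 0.777 (Slc17a4).

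Other endothelial genes gave a background for these courses. Of 19 further sinusoidal endothelial genes tested, 1 was called higher and 6 lower at 6 h (median -0.57, against -0.28 over all genes). At day 7, 3 were called higher and all 19 changes were above 0 (median 0.65, against 0.13 over all genes). For this list and those below, 4.78% of all genes were called higher and 11.5% lower at 6 h. These shares were 7.81% and 1.03% at day 7, and 3.33% and 2.49% at day 3. At day 14, 9 were called lower than at day 7 and none higher (median -0.92, against -0.24 over all genes), where 7.35% and 0.441% of all genes were. The largest rise was that of Cd36, a fatty acid transporter that hepatocytes and macrophages also express, at 24 h (2.1 ± 0.37, adjusted p = 0.000807), and the largest fall that of Dnase1l3, a secreted nuclease, at 6 h (-1.8 ± 0.41, adjusted p = 0.002).

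Of 23 further pan-endothelial genes tested, 2 were called higher and 4 lower at 6 h (median -0.48), and 5 higher and 0 lower at day 7 (median 0.65). Klf2, a factor that blood flow induces in endothelium and that lymphocytes also express, rose most at day 7, from 4.39 to 42.9 FPKM (3.01 ± 0.2, adjusted p = 3.28e-08). Cldn5, a tight junction gene, fell most at 6 h, from 8.93 to 0.98 FPKM (-2.35 ± 0.38, adjusted p = 0.000152). Under quantile normalization the medians at 6 h were -0.29 for the sinusoidal and -0.19 for the pan-endothelial list, with 3 and 2 genes called lower. At day 7 they were 0.46 and 0.44, with 3 and 2 called higher. With a pseudocount of 0.1 or voom 6 pan-endothelial genes were called lower at 6 h and 8 higher at day 7. Calls over all 11114 genes differed between these settings too. Lower calls at 6 h numbered 674 with quantile normalization, 2205 with a pseudocount of 0.1 and 2318 with voom. Higher calls at day 7 numbered 580, 1276 and 1298 in the same order.

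Capillary, large vessel and tip cell genes had 11 of 18 tested, with 2 called higher at 6 h and 3 at day 7. At day 7 the count was 6 with a pseudocount of 0.1, 7 with voom and 2 with quantile normalization. Over all 11114 genes these settings called 1276, 1298 and 580 higher at day 7. The first 2 of these settings also called 2 of the list lower at 6 h, where they called 2205 and 2318 of all genes lower. Thbd, thrombomodulin, rose from 1.18 to 21.1 FPKM at 6 h (3.34 ± 0.42, adjusted p = 1.9e-05), and Ltbp4, a matrix protein, fell at 24 h (-1.48 ± 0.22, adjusted p = 0.000254). The tip cell gene Esm1 and 6 others of this list were under 1 FPKM in every sample.

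Of 13 genes that act with the receptors, in the VEGF and angiopoietin pathway, 2 were called higher and 3 lower at 6 h and 0 in either direction at day 7. Over all genes 4.78% were called higher and 11.5% lower at 6 h, and 7.81% and 1.03% at day 7. Quantile normalization gave 3 higher and 1 lower at 6 h, and a pseudocount of 0.1 or voom gave 3 and 4. Over all 11114 genes quantile normalization called 758 higher and 674 lower at 6 h. A pseudocount of 0.1 called 716 and 2205, and voom 704 and 2318. Nrp1, a co-receptor for VEGF that other liver cells also express, rose from 23.6 to 105 FPKM (2.07 ± 0.26, adjusted p = 1.8e-05). Hhex, a homeobox factor of hepatocytes and endothelium, fell (-1.66 ± 0.55, adjusted p = 0.0196). Vegfa, the ligand of Kdr and named here after its values were seen, was at 34.5 FPKM in Normal liver and 14.4 FPKM at 6 h (-1.21 ± 0.3, adjusted p = 0.00315), the time at which Kdr was lowest. At day 7, when Kdr was highest, it was at 24.4 FPKM (-0.46 ± 0.3, adjusted p = 0.265).

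Among 16 genes of the Wnt and R-spondin pathway tested, 0 were called higher and 5 lower at 6 h (median -0.45), when Wnt2 was at its lowest mean. Rnf43, which removes Wnt receptors and is itself a Wnt target, fell from 5.05 to 0.613 FPKM (-1.85 ± 0.37, adjusted p = 0.000702). None was called at day 7, when Wnt2 was at its highest. At that time a pseudocount of 0.1 or voom called 1 higher, where 1276 and 1298 of all genes were. Quantile normalization called 1 lower, where 221 of all genes were. Any link of these genes to Wnt2, or to Rspo3, which was above every control sample at 6 h, was not tested. Lect2, a secreted protein of hepatocytes, rose most, at 24 h (1.42 ± 0.27, adjusted p = 0.00119).

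Of 23 genes of the BMP pathway and hepcidin control tested, 4 were called higher and 3 lower at 6 h, and 3 higher and 0 lower at day 7. Hamp, hepcidin, rose most, from 526 to 2110 FPKM at 6 h (2.79 ± 0.77, adjusted p = 0.00678), when Bmp2 overlapped the controls. Hamp2 fell at 24 h (-4.43 ± 0.73, adjusted p = 0.000471), but these 2 genes are near copies whose reads the counting could split. Id1, a BMP target named after its values were seen, was at 8.13 FPKM in Normal liver, 35.6 FPKM at 6 h (2.04 ± 0.44, adjusted p = 0.00138) and 26.3 FPKM at day 7 (1.62 ± 0.44, adjusted p = 0.0125). Any link of Bmp2 to Hamp or Id1 was not tested.

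Of the markers of other cells, those of Kupffer cells and macrophages fell at 6 h and rose at day 7, as most members did. At 6 h the medians of leukocyte (0.01), red blood cell (0.74), stellate cell (0.17) and cholangiocyte (0.25) markers were above 0. Those of hepatocyte (-0.09) and mesothelial (-0.29) markers were below 0. Kupffer cell and macrophage markers had 8 of 10 called lower at 6 h and 9 of 10 higher at day 7, with summed levels of 198 to 326 FPKM in Normal liver, 69.6 to 135 at 6 h and 1070 to 1550 at day 7. Their largest rise was that of Marco at day 7 (4.69 ± 0.5, adjusted p = 3.91e-06) and their largest fall that of Slc40a1, ferroportin, at 6 h (-2.29 ± 0.27, adjusted p = 9.71e-06). Their medians were 2.09 at day 7 and -1.31 at 6 h, beyond those of the members. At 24 h, day 3 and day 14 the sums were 170 to 180, 203 to 469 and 146 to 181 FPKM.

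Recruited leukocyte markers had 7 of 9 tested called higher at day 7, with sums of 57.8 to 101 FPKM in Normal liver, 53.6 to 231 at the other times after PHX and 400 to 603 FPKM at day 7. S100a9 rose most (3.88 ± 0.56, adjusted p = 8.35e-05) and Lyz2 fell at 6 h (-1.23 ± 0.41, adjusted p = 0.0214). Red blood cell genes, 4 of 5 tested called higher at day 7, had sums of 87.4 to 150 FPKM in Normal liver, 26.8 to 306 at the other times and 238 to 311 FPKM at day 7. Hbb-bs rose most (3.09 ± 0.96, adjusted p = 0.0247, a gene with near copies) and Alas2 fell at day 3 (-2.3 ± 0.46, adjusted p = 0.00243). PHX-D7 replicate 1, highest for the members, was highest for these 3 lists as well within its group (1550, 603 and 311 FPKM).

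Stellate cell and fibroblast markers had 2 of 12 called higher at day 7, with sums of 145 to 190 FPKM in Normal liver and 196 to 303 at day 7. Hgf, a growth factor of stellate and endothelial cells, rose at 24 h (2.08 ± 0.36, adjusted p = 0.00073) and Colec11, a lectin, fell (-1.32 ± 0.18, adjusted p = 0.000127). Hepatocyte markers had no call at day 7, with sums of 55800 to 60200 FPKM in Normal liver and 41900 to 48800 at day 7. In that list Tat rose at 6 h (2.06 ± 0.38, adjusted p = 0.000359) and Ttr fell at 24 h (-1.42 ± 0.28, adjusted p = 0.00172). What part these other cells have in the changes of Pecam1, Bmp2, the other members and the further endothelial genes was not tested.

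Cell division genes were called higher in 8 of 8 tested at day 3 and 6 of 8 at day 7, with Ccnb1 the largest (2.29 ± 0.27 at day 3, adjusted p = 9.61e-05). No member was called at day 3. Of 6 cholangiocyte markers tested, 1 was called higher at 6 h, Sox9 (2.12 ± 0.63, adjusted p = 0.011), and 0 of 2 mesothelial markers tested was called at any time against Normal liver.

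**Figure D4:**
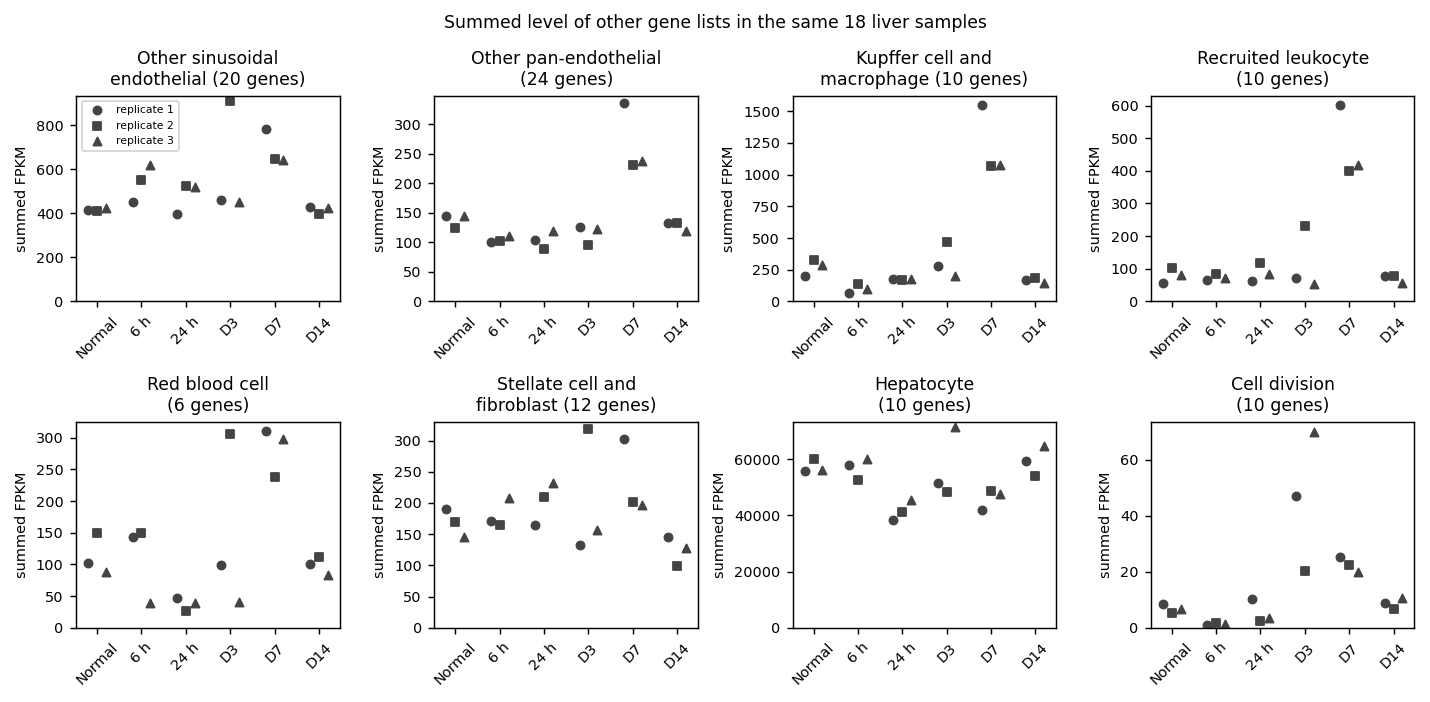
Summed FPKM of 8 other gene lists in each liver sample (y axis, linear from 0) by group (x axis), with 1 point a replicate. Macrophage, leukocyte, red blood cell and other pan-endothelial sums are highest or among the highest at day 7, as for Kdr, Pecam1 and Bmp2, and the macrophage sum is lowest at 6 h (69.6 to 135 FPKM).

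Hepatocytes isolated from liver held less of each member than Normal liver. The 3 samples of a group in that table are technical repeats and its values were made in another table, so no test was run. Clec4g was at 11.6, 12.1 and 14.2 FPKM in freshly isolated hepatocytes, with a mean 16.1% of that of Normal liver. Kdr was at 19.4%, Stab2 at 20.7%, Pecam1 at 14.8%, Wnt2 at 15.6%, Bmp2 at 13.6%, Tek at 9.43%, Lyve1 at 8.03% and Angpt2, low in both, at 41.3% of the Normal liver mean. Rspo3 was listed at 0 in 2 of the 3 samples and at 0.0148 FPKM in the other. Hepatocyte markers had a median of 114% and Kupffer cell markers one of 6.79% by the same measure. Other lists ranged widely. The median was 1.39% for stellate cell markers (11 genes) and 36.5% for cholangiocyte markers (4 genes). It was 57.7% for red blood cell genes (4 genes) and 91.1% for recruited leukocyte markers (4 genes). How much RNA of other cells the hepatocyte samples held was not tested.

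In the 30 samples of cultured cells most members were at or near 0. IL6-iHPCs are dividing progenitor-like cells grown from hepatocytes with IL6, and IL6-iMHs are hepatocyte-like cells matured from them. Wnt2 was listed at 0 in 28 of them, Clec4g in 24, Kdr in 21, Lyve1 in 19 and Tek in 13, and none of Clec4g, Kdr, Tek and Wnt2 reached 1 FPKM in any. IL6-iHPCs at day 3 of the first culture still held Pecam1 (1.67, 1.54 and 1.67 FPKM), Stab2 (1.6, 1.39 and 1.29 FPKM) and Lyve1 (1.01, 1.01 and 0.788 FPKM), above fresh hepatocytes. By day 14 they were at 0.185, 0.0998 and 0.075 FPKM on average.

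Rspo3 did not follow that course. It was at 1.94 ± 0.212 FPKM (SD, n = 3 repeats) at day 3 and 2.13 ± 0.522 at day 14 of the first culture, and at 2.98 ± 0.395 in IL6-iHPCs-clone-1 (P20) and 2.53 ± 0.215 in IL6-iHPCs-mouse-1 (P35), beside the 2.75 FPKM of Normal liver. It was lower in IL6-iHPCs-mouse-1 (P10), at 0.41 ± 0.0234 FPKM, and in IL6-iHPCs-mouse-2 (P10), at 1.1 ± 0.0971 FPKM. In IL6-iMHs-clone-1 (P20) and IL6-iMHs-mouse-1 (P35) it was at 0.0134 and 0.792 FPKM, and in those of mouse-1 (P10) and mouse-2 (P10) at 0.0606 and 0.128 FPKM. Angpt2 reached 2, 2.51 and 1.8 FPKM at day 3, above every liver sample, and its mean was 0.574 FPKM at day 14. In the passaged IL6-iHPCs it was at 0.037 and 0.0459 FPKM in mouse-1 and mouse-2 (P10), 0.288 FPKM in clone-1 (P20) and 0.82 FPKM in mouse-1 (P35). Bmp2 was at 3.28, 2.97 and 2.67 FPKM in IL6-iMHs-clone-1 (P20) and at most 0.755 FPKM in all other cell samples.

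**Figure D5:**
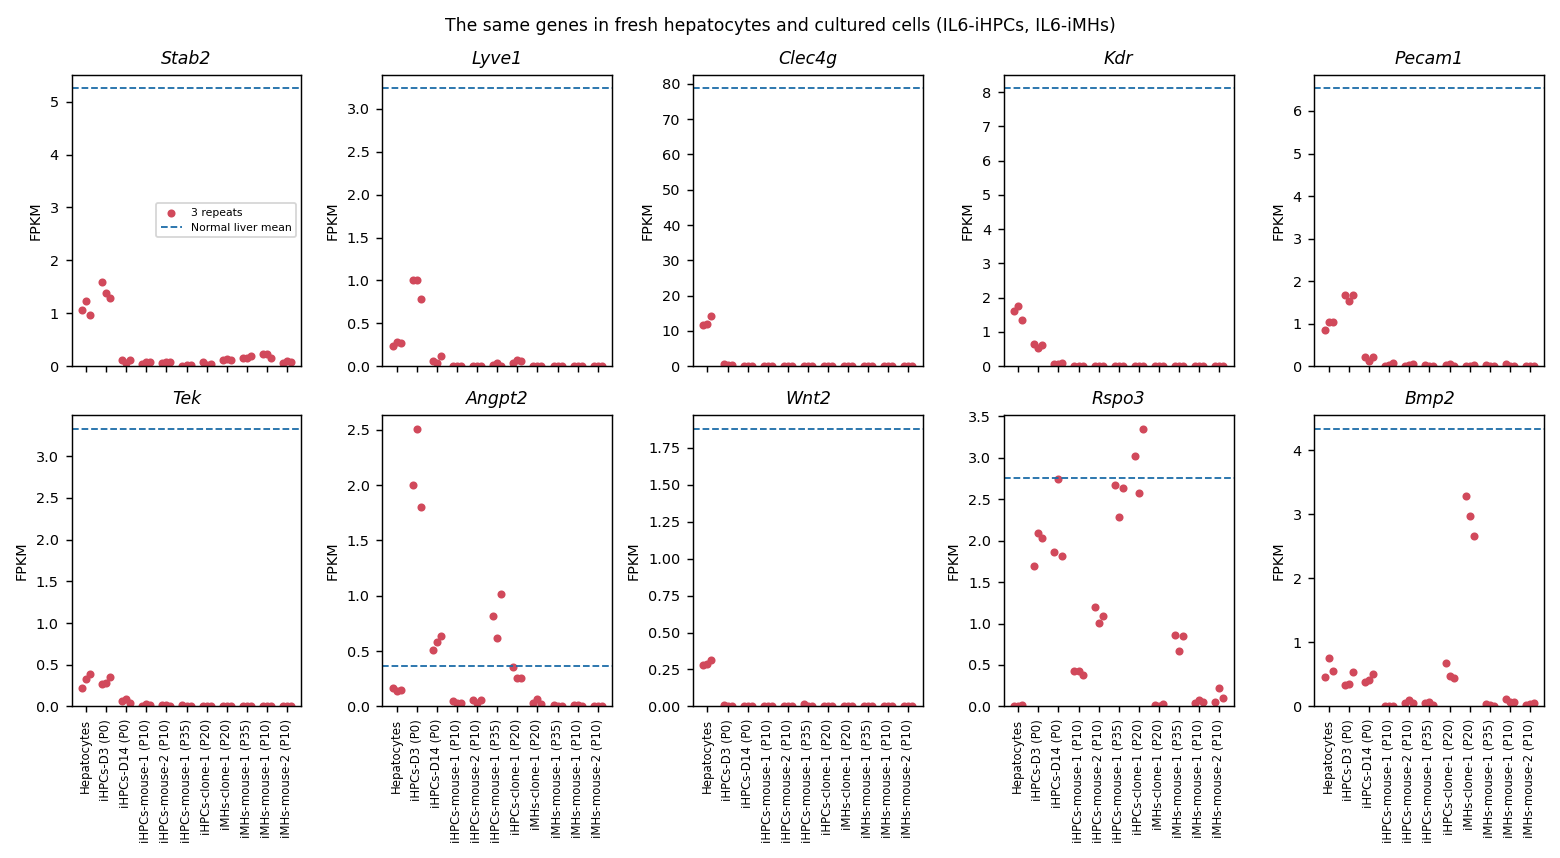
FPKM of the 10 members (y axis, linear from 0) in fresh hepatocytes and 10 culture groups (x axis, 3 technical repeats each), with the Normal liver mean as a dashed line. All 10 hepatocyte means are below the line, and Rspo3, Angpt2 and Bmp2 are the members with values above those of hepatocytes in passaged cells or cells matured from them.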

How the data were processed

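Messenger RNA was purified with polyT from liver and cells and sequenced in pairs on an Illumina instrument. Per the labels, TopHat 1.4.1, Cufflinks 1.3.0 and mm10 were used, with no role or annotation given in the sources used here. The deposited tables hold FPKM that the authors made, 1 value per gene and sample, for 18 liver samples and 33 cell samples. A table for day 7 of culture holds none of the members and was not used. The 2 repeated symbols among the liver values were averaged.

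FPKM here are whole multiples of a step per gene and sample, and all 17331 liver rows above 0 gave whole reads within 0.01 of a read, so reads were recovered up to a common factor. Intervals are 95% confidence limits of a difference between group means, judged against the spread between samples.

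The fit was made by limma (version 3.58.1, R 4.3.3) to log2(FPKM + 1), using the trend option, 6 groups and no covariate. It took in the 11114 genes that reached 1 FPKM in 3 or more samples. Fold changes understate low genes. Benjamini-Hochberg adjustment was made over these genes. The step was tested on simulated data. Python 3.11.15, numpy 2.4.6, pandas 2.3.3 and matplotlib 3.10.9 did the rest. Alternatives were a pseudocount of 0.1, no filter or 5 FPKM, quantile normalization, a replicate block, other fold thresholds, only the 2 groups compared, limma voom on recovered reads and leaving out each sample. Leaving out both libraries that stood apart was added after seeing the data.

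Members and gene lists were chosen with earlier results of these data known. Named are all members and, from each other list, the largest rise and fall past the threshold against Normal liver, beside the genes most like each member. A few of the genes this rule names are not reported here. Gene positions are from GENCODE M21.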

Additional observations from a re-analysis of the deposited data

Results flagged for a closer look

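Kdr was called lower than Normal liver at 6 h and higher at day 7, and the direct comparison of day 7 with 6 h, by the same limma fit, gave a log2 difference of 2.64. All 3 samples of each time moved that way. Kdr was picked by these 2 calls, so the direct difference follows from them and adds no separate evidence. In that comparison 21.3% of all genes were called higher. The difference kept its direction and its call under all 26 alternatives, at 2.14 to 3.16. The call of Kdr at day 7 against Normal liver was lost in 4 of its 26 alternatives.

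In the cell table, which was used only as a check, 9 group means stood out because every repeat was at 1 FPKM or more and above all fresh hepatocyte samples. In IL6-iHPCs-D3 (P0) these were Stab2 (1.43 FPKM), Pecam1 (1.62 FPKM), Angpt2 (2.1 FPKM) and Rspo3 (1.94 FPKM). Rspo3 did so also in IL6-iHPCs-D14 (P0) at 2.13 FPKM, IL6-iHPCs-mouse-2 (P10) at 1.1 FPKM, IL6-iHPCs-mouse-1 (P35) at 2.53 FPKM and IL6-iHPCs-clone-1 (P20) at 2.98 FPKM. The remaining case was Bmp2 in IL6-iMHs-clone-1 (P20), at 2.97 FPKM. Groups of 3 are too small for a check on single samples.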

How the results depend on the processing

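No member called in any comparison turned its direction under any alternative, and of 2310 single changes recomputed 2233 kept their side of the threshold. With no fold threshold the counts of members called against Normal liver were 6 at 6 h, 1 at day 3, 5 at day 7 and 1 at day 14, and 7 for day 14 against day 7. At 1.5-fold they were 5, 1, 5, 1 and 7. The share of all genes called was not computed for these 2 settings, with no filter or with single samples left out. Without both libraries that stood apart it was computed only for 24 h and day 3 against Normal liver. Quantile normalization gave 1 at 24 h, 0 at day 7, 3 for day 7 against day 3 and 1 for day 14 against day 7. The count at 24 h was also 1 with no filter and with voom, and that for day 14 against day 7 was 7 with a pseudocount of 0.1 and with voom. Calls over all 11114 genes changed too. Those higher at day 7 went from 868 to 580 with quantile normalization. Those lower for day 14 against day 7 went from 817 to 480 with quantile normalization, 1328 with a pseudocount of 0.1 and 1411 with voom. With both libraries that stood apart left out, day 3 against 24 h had 2. Leaving out each sample in turn gave ranges of 2 to 3 at 6 h, 0 to 2 at 24 h, 0 to 2 at day 3, 1 to 3 at day 7 and 0 to 0 at day 14. For 24 h against 6 h, day 3 against 24 h, day 7 against day 3 and day 14 against day 7 the ranges were 0 to 1, 0 to 1, 2 to 6 and 1 to 6. The low ends at day 7 and after it came without PHX-D7 replicate 1, and that at 24 h without PHX-24h replicate 2, which also gave the 1 of 24 h against 6 h. The 2 at day 3 came without PHX-D3 replicate 3, and the 1 of day 3 against 24 h without PHX-D3 replicate 2. At 24 h the count was 1 without any 1 of the Normal liver samples and of 6 others. The cause was not tested.

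Quantile normalization moved the share of calls over all genes that were higher from 29.3% to 52.9% at 6 h, 88.4% to 72.4% at day 7, 32.9% to 47.6% at day 14, 84.5% to 66% for day 7 against day 3, 5.66% to 17.4% for day 14 against day 7 and 85.4% to 52.2% for day 7 against 6 h. At day 14 the share was 22.7% with a pseudocount of 0.1 and 19.2% with voom. Samples with the same replicate number correlated in their deviations at -0.3 to 0.39 (median -0.06), so the numbers were not taken as pairs. A replicate block gave the same counts, 3, 2, 0, 3 and 0 against Normal liver and 0, 0, 5 and 4 between times. Depth limits Angpt2, with 19 to 132 reads a sample, and the precision of the rest is set by 3 samples a group.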
